A study of Mus musculus with 4 samples.

Results

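The cyclin-dependent kinase inhibitors are the proteins that restrain the kinases of the cell cycle. Here they were taken as 6 genes, Cdkn1a, Cdkn1b, Cdkn1c, Cdkn2c, Cdkn2d and Cdkn3, found by their symbols among the 18436 genes of the deposited table, and all 6 were present and passed the filter on low values. The cells came from mice in which an EGFP reporter and a tamoxifen-inducible Cre recombinase (creERT2) are expressed from the Lgr5 gene, a marker of the crypt base columnar stem cells of the intestine. Lgr5-CREPTKO mice also carried CREPT fl/fl alleles, so that tamoxifen removes CREPT, a protein that associates with RNA polymerase II and is encoded by Rprd1b, from cells that express Lgr5, whereas the control mice (Lgr5-WT) carried the reporter and Cre without the floxed alleles. All mice were on a C57BL/6 background, and the study used both sexes at 6 to 8 weeks of age. Both genotypes received 1 mg of tamoxifen a day for 5 days by intraperitoneal injection, and Lgr5-GFP high cells were sorted from dissociated crypts on day 7. RNA of 2 Lgr5-WT and 2 Lgr5-CREPTKO mice was sequenced. The reporter line is mosaic, so part of the crypts express neither GFP nor Cre.

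Cyclin-dependent kinases drive a cell from G1 through DNA synthesis to mitosis when bound to a cyclin. The INK4 proteins, among them p18 (Cdkn2c) and p19 (Cdkn2d), bind Cdk4 and Cdk6 and keep them from the D-type cyclins. The Cip/Kip proteins p21 (Cdkn1a), p27 (Cdkn1b) and p57 (Cdkn1c) bind complexes of cyclins with their kinases, including those of Cdk2. Cdkn3 is of another kind, a dual-specificity phosphatase (also named KAP) that removes the activating phosphate from the T-loop of Cdk2 and Cdk1. Unlike most inhibitors, it is itself transcribed mainly in proliferating cells, towards mitosis. In the crypt, p27 and p57 are associated with cells that leave the cycle, and p21 is the classical target of p53 after DNA damage.

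Promoter sequences (300 bases around a transcription start, most of them before it, from RefSeq on GRCm38.p6) were matched for 5 of the 6 genes, all except Cdkn1c. The Cdkn3 promoter is shown because it was the gene that differed most between the genotypes, and a window of the Cdkn1a promoter because p53 targets are compared with Cdkn1a below. Capitals in Cdkn3 mark CCAAT (or ATTGG on the other strand), the box bound by NF-Y, and TTTGAA (or TTCAAA), the core of the cell cycle genes homology region (CHR). Capitals in Cdkn1a mark the fixed letters of CATGNNNNNNCATG, the spacing of the core bases of a p53 response element. Both genes lie on the plus strand, Cdkn3 at chr14:46760291-46760590 and the Cdkn1a window at chr17:29090911-29090964.
Cdkn3: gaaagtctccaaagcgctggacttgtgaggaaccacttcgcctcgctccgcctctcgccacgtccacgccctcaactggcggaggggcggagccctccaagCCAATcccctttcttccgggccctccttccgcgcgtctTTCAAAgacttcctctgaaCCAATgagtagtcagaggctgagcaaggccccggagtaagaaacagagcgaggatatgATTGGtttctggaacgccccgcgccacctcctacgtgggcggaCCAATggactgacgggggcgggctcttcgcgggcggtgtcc
Cdkn1a: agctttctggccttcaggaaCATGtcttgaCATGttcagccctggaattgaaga

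The Cdkn3 promoter held 4 CCAAT matches and 1 CHR match on either strand, which do not overlap each other. Among 32851 promoters of the same length, 37.4% held at least 1 CCAAT, 17.9% the CHR core, 3.37% at least 3 CCAAT matches and 0.545% at least 3 together with the CHR core. The Cdkn1b promoter held 3 CCAAT matches, and Cdkn2c (at 1 of its 2 starts) and Cdkn2d 1 each, and the CHR core was not found in these windows. The p53 spacing was found at the upstream of the 2 Cdkn1a starts and in 0.712% of all promoters. A match describes the letters of the window and was not tested as a binding site.

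Rprd1b was lower in Lgr5-CREPTKO cells, at 17.7 and 18.1 FPKM in the Lgr5-WT mice, against 6.65 and 7.36 FPKM in the Lgr5-CREPTKO mice (log2 fold change -1.29, standard error 0.0946, adjusted p = 0.0280 by limma's moderated test), which fits the labels. FPKM is the number of fragments of a gene corrected for transcript length and for the size of the library, so it can be compared between genes as well as between mice, but it is relative to the rest of the library. It gives no read numbers, and the absolute depth was not estimated. Between 1545 and 1902 of the 18436 genes were listed at 0 in a mouse. Stem cell markers were high in every mouse, led by Olfm4. The summed level of the 12 listed genes was 6248 to 6417 FPKM in Lgr5-WT and 6747 to 6957 FPKM in Lgr5-CREPTKO mice. Of the 12, 0 passed the test described below, with a median log2 fold change of 0.22. Before adjustment, 0 were lower and 6 higher at p below 0.05, against 15.2% and 9.27% of all genes tested. Both Lgr5-CREPTKO values were above both Lgr5-WT values in 10, against 25.6% of all genes, and below them in 1, against 31.0%. Immune and stromal markers were near 0, with a summed level of the 10 genes of 0.670 to 4.09 FPKM over all mice, and 0 of the 2 that could be tested passed (0 also before adjustment). In sorted bulk RNA, fewer cells of a type and less RNA per cell cannot be told apart.

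Cdkn1b was the most abundant inhibitor transcript in both genotypes and Cdkn1c the least. By mean FPKM in the Lgr5-WT mice the order was Cdkn1b (35.6 ± 4.52, SD, n = 2), Cdkn1a (16.1 ± 3.36), Cdkn3 (12.4 ± 0.799), Cdkn2c (11.1 ± 0.933), Cdkn2d (6.30 ± 0.544) and Cdkn1c (3.72 ± 0.912). No neighbours in this order had overlapping values, although those of Cdkn3 and Cdkn2c nearly met (lowest 11.84 and highest 11.80 FPKM). In the Lgr5-CREPTKO mice the order was Cdkn1b (33.2 ± 3.03), Cdkn1a (15.5 ± 0.375), Cdkn2c (9.94 ± 1.91), Cdkn2d (4.88 ± 0.728), Cdkn3 (1.86 ± 1.20) and Cdkn1c (1.48 ± 0.0849), and the values of the last pair overlapped. Cdkn3 thus stood above both INK4 genes in Lgr5-WT and below both in Lgr5-CREPTKO cells, and the other 5 genes kept their order among themselves. The sum of the 6 levels was 83.3 and 87.2 FPKM in the Lgr5-WT mice, against 69.7 and 64.0 FPKM in the Lgr5-CREPTKO mice.

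**Figure D1:**
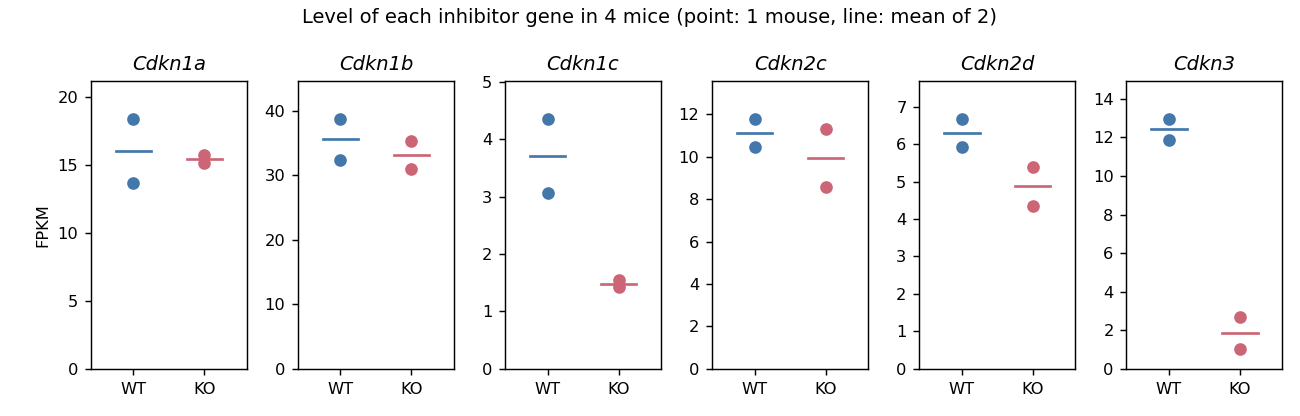
FPKM of the 6 inhibitor genes in the 2 Lgr5-WT (WT) and 2 Lgr5-CREPTKO (KO) mice, each panel with its own linear axis from 0, with 1 point per mouse and a line at the mean of 2. The genotypes do not overlap for Cdkn1c, Cdkn2d and Cdkn3 and overlap for the other 3 genes.

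The genotypes were compared for 12621 genes whose mean reached 0.5 FPKM, on the scale of log2(FPKM + 0.5), by limma's moderated test with Benjamini-Hochberg adjustment over all genes tested. Log2 fold changes are Lgr5-CREPTKO minus Lgr5-WT on it, a scale that makes changes of low genes look smaller. Of the 6 inhibitors, 1 (Cdkn3) was lower with an adjusted p below 0.05, where 2.67% of all genes tested were, and 0 were higher, where 0.412% of all genes were. At an unadjusted p below 0.05 the counts were 2 lower (Cdkn3 and Cdkn1c), where 15.2% of all genes were, and 0 higher, where 9.27% were. Scaling each library to a common sum changed the calls over all genes from 337 lower and 52 higher to 243 lower and 85 higher, and left the count of inhibitors at 1 lower. The same scaling turned the balance at an unadjusted p below 0.05, from 1916 lower and 1170 higher to 1409 lower and 1960 higher. The median over all genes became 0.06. Unscaled, both Lgr5-CREPTKO libraries had a lower FPKM total than both Lgr5-WT libraries. Percentages of all genes given here are for unscaled values. With the study's fold change threshold (above 1 on the log2 scale) added, Cdkn3 still passed, as did 1.01% of all genes in that direction. Both Lgr5-CREPTKO values were below both Lgr5-WT values for 3 of the 6 genes, against 31.0% of all genes, and above them for 0 of the 6, against 25.6% of all genes. The fitted log2 fold changes of all 6 were negative, with a median of -0.25 beside -0.01 over all genes tested, but the sign of Cdkn1a, Cdkn1b and Cdkn2c turned when 1 mouse was left out, and that of Cdkn1a also when libraries were scaled to a common sum. An exact two-sided permutation test of 2 against 2 mice cannot give a p below 0.333, so the adjusted p-values depend on limma's pooling of variance between genes.

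**Figure D2:**
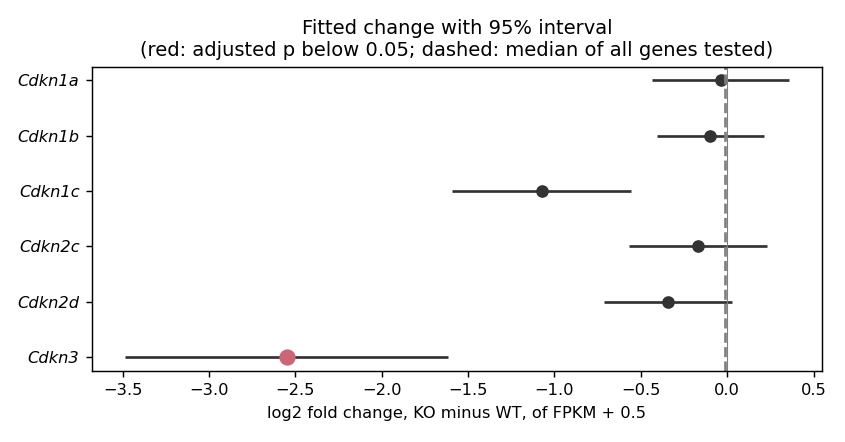
Log2 fold change (Lgr5-CREPTKO minus Lgr5-WT, of FPKM + 0.5) of each inhibitor gene with its 95% interval from limma, with the median of all genes tested as a dashed line. The interval of Cdkn3, from -3.48 to -1.62, and that of Cdkn1c, from -1.59 to -0.55, lie below 0, and the other 4 include 0.

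Cdkn3 (chromosome 14 from 46760461 to 46771530), the phosphatase of Cdk2 and Cdk1, fell in Lgr5-CREPTKO cells. It was at 13.0 and 11.8 FPKM in the Lgr5-WT mice and at 1.01 and 2.71 FPKM in the Lgr5-CREPTKO mice. The Lgr5-WT mice lay close together, and the Lgr5-CREPTKO mice, although far below both, differed from each other more than the Lgr5-WT mice did. The ratio of means was 0.150, so the mean was 6.67-fold higher in Lgr5-WT cells. On the log2 scale Cdkn3 differed by -2.55 with a standard error of 0.363 (adjusted p = 0.0423 by limma's moderated test), the 12th most negative of the 12621 genes tested. The standard error was the largest of the 6 inhibitors. Leaving out any 1 of the 4 mice gave values from -3.09 (without Lgr5-CREPTKO mouse 2) to -2.01 (without Lgr5-CREPTKO mouse 1) and raised the adjusted p to between 0.123 and 0.304, where 0 genes of the whole table passed by limma (1170 to 1615 lower and 633 to 954 higher before adjustment). The call was also lost without the filter on low values, without the intensity trend and with a robust trend, at adjusted p = 0.134, 0.0809 and 0.0567.

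Genes of the G2/M phase, in which Cdkn3 is mainly transcribed, showed smaller differences. All 54 genes of the Seurat G2/M list were tested, and 0 passed in either direction at an adjusted p below 0.05. Before adjustment, 10 were lower and 1 higher at p below 0.05, against 15.2% and 9.27% of all genes tested. Both Lgr5-CREPTKO values were below both Lgr5-WT values in 23 of the 54, against 31.0% of all genes, and above them in 5, against 25.6%. Their log2 fold changes ran from -0.57 to 0.27 with a median of -0.13, so that of Cdkn3 lay outside their range. The most negative was that of Cdca3, which takes part in mitotic entry, at 60.0 and 61.1 FPKM in Lgr5-WT and 36.0 and 46.2 FPKM in Lgr5-CREPTKO cells (adjusted p = 0.0868). Cenpa, the histone H3 variant of centromeres, and Ube2c, a ubiquitin-conjugating enzyme of the anaphase-promoting complex, had log2 fold changes of -0.51 and -0.43. The summed level of the list was 0.977 to 1.02 of the Lgr5-WT mean in the Lgr5-WT mice and 0.919 and 0.921 in the Lgr5-CREPTKO mice, beside 0.0814 and 0.218 for Cdkn3. These sums were not scaled to a common library total, which was lower in both Lgr5-CREPTKO libraries than in both Lgr5-WT libraries. The part of that total in the lower G2/M sum was not tested. Of the 43 genes of the S phase list 0 passed (5 lower and 1 higher at p below 0.05 before adjustment), with a median of -0.04, and the most negative were Tyms, Cenpu and Prim1 at -0.79, -0.56 and -0.50.

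The substrates of Cdkn3 were compared with it within each mouse, where the scaling of the library has no part. Cdk1 was at 21.3 and 22.3 FPKM in Lgr5-WT and 21.1 and 17.9 FPKM in Lgr5-CREPTKO cells, and Cdk2 at 33.7 and 31.7 FPKM and at 31.2 and 26.4 FPKM. Neither passed the test (log2 fold changes -0.16 and -0.18, adjusted p = 0.404 and 0.352). The ratio of Cdkn3 to Cdk1 was 0.608 and 0.531 in the Lgr5-WT mice and 0.0479 and 0.152 in the Lgr5-CREPTKO mice, and that of Cdkn3 to Cdk2 was 0.385 and 0.374 and then 0.0324 and 0.103. The log2 difference of these ratios was -2.74 and -2.72, with an exact permutation p of 0.333 each, the smallest that 4 mice allow, and it lay between -3.57 and -1.89 over both ratios when any 1 mouse was left out.

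**Figure D3:**
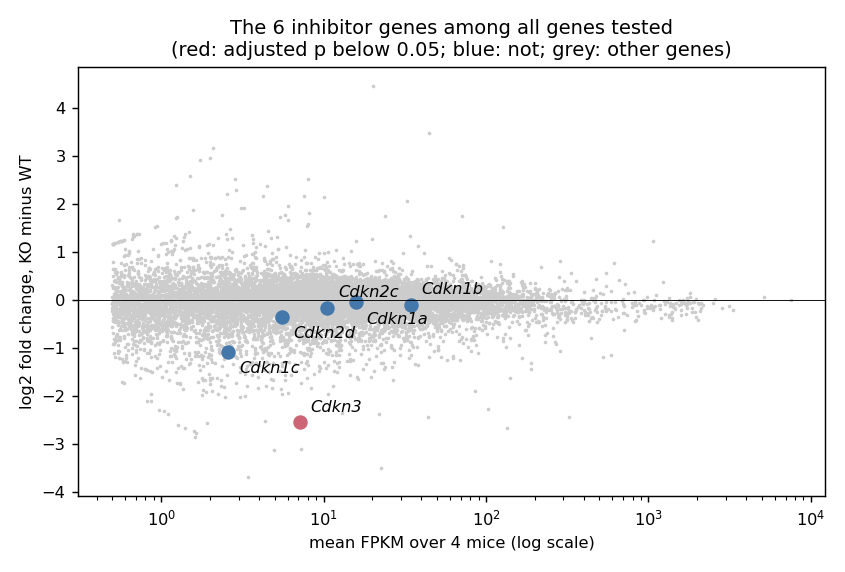
Log2 fold change (Lgr5-CREPTKO minus Lgr5-WT) against mean FPKM over 4 mice, on a log axis, for all 12621 genes tested (grey) and the 6 inhibitors (red, adjusted p below 0.05; blue, not). Cdkn3 lies at -2.55 near the lower edge of the cloud, Cdkn1c at -1.07, and the other 4 between -0.34 and -0.04.

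Cdkn1c (chromosome 7 from 143458339 to 143461059), which encodes p57, was the lowest of the 6 in level and second to Cdkn3 in the size of its difference. It was at 3.07 and 4.36 FPKM in the Lgr5-WT mice and at 1.42 and 1.54 FPKM in the Lgr5-CREPTKO mice, so the genotypes did not overlap, and the Lgr5-CREPTKO mice differed less from each other than the Lgr5-WT mice. The mean was 2.51-fold higher in Lgr5-WT cells. The log2 fold change was -1.07 (standard error 0.202, 95% interval -1.59 to -0.55), with an adjusted p of 0.0638 by limma's moderated test, which missed the threshold. It passed in 2 alternatives, at an adjusted p of 0.0463 when genes with only shorter transcripts than 200 bases were left out and of 0.0471 with a robust trend, within a range of 0.0463 to 0.304 over 15 alternatives, and it ranked 276th from the most negative of the 12621 genes. The annotated antisense gene Gm44732 overlaps Cdkn1c, and whether the counting used strand is not given in the sources used here.

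Some markers of enteroendocrine and goblet cells fell in the same mice, and those of tuft cells leaned lower. Of the 15 enteroendocrine markers, all tested, 6 passed as lower and 0 as higher, with a median log2 fold change of -1.41. Over all genes tested, 2.67% passed as lower. Before adjustment, 13 of the 15 were lower and 1 higher at p below 0.05, against 15.2% and 9.27% of all genes. Both Lgr5-CREPTKO values were below both Lgr5-WT values in 13, against 31.0% of all genes. The summed level of the 15 was 257 and 347 FPKM in the Lgr5-WT mice, against 98.4 and 111 FPKM in the Lgr5-CREPTKO mice. The 6 were Ghrl, Cck and Tac1, which encode peptide hormones, Chgb, a granule protein, and the transcription factor genes Neurod1 and Pax4. Reg4, also on the list, went the other way, at 15.3 and 10.2 FPKM and then 19.1 and 22.5 FPKM (log2 fold change 0.71, adjusted p = 0.128). Of the 10 goblet markers, 2 passed as lower (Spink4 and Ern2) and 0 as higher, with a median of -1.04. Before adjustment, 7 were lower and 0 higher at p below 0.05, and 9 did not overlap, with both Lgr5-CREPTKO values below. The goblet sum was 1484 and 2475 FPKM and then 817 and 947 FPKM. Of the 9 tuft markers, 8 were in the table and 6 were tested, and 0 passed (4 lower and 0 higher at p below 0.05 before adjustment). The median of the 6 was -1.26, and both Lgr5-CREPTKO values were below both Lgr5-WT values in all 6. The sum of the 8 was 22.4 and 46.1 FPKM and then 18.0 and 6.88 FPKM, while Il25 was at or below 0.1 FPKM in every mouse. Relative to the Lgr5-WT mean, Cdkn1c was at 0.382 and 0.415 in the Lgr5-CREPTKO mice. The enteroendocrine sum was at 0.326 and 0.368, the goblet sum at 0.413 and 0.478 and the tuft sum at 0.525 and 0.201. The part of these cells in the difference of Cdkn1c, or of Cdkn3, was not tested.

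The summed markers of Paneth cells and enterocytes overlapped between the genotypes. The 8 Paneth markers, all tested, had 0 genes past the test in either direction (0 and 0 at p below 0.05 before adjustment) and a median of 0.30 on the log2 scale, and their sum was 1410 and 1018 FPKM in the Lgr5-WT mice, against 839 and 2470 FPKM in the Lgr5-CREPTKO mice. The 9 enterocyte markers also had 0 (0 and 0 at p below 0.05 before adjustment), with sums of 420 and 556 FPKM and then 378 and 646 FPKM.

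**Figure D4:**
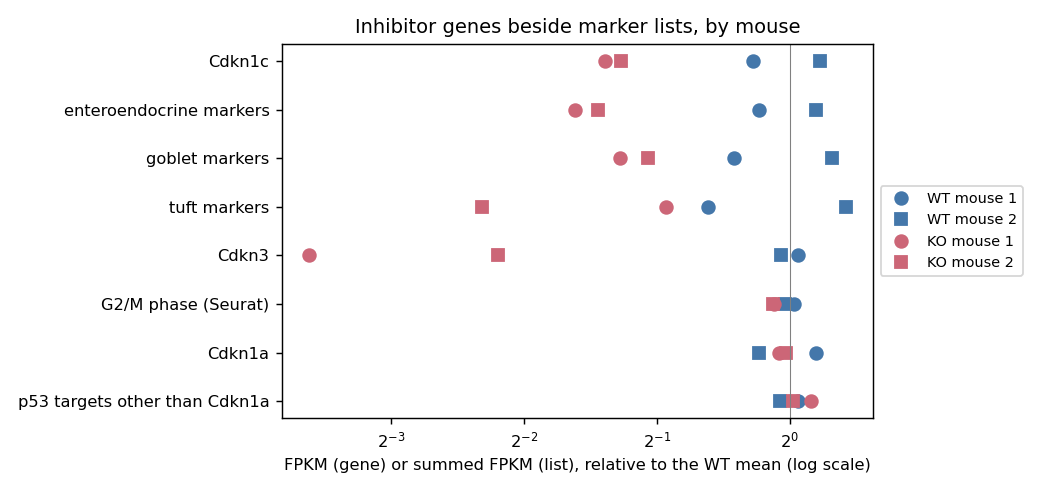
Level of Cdkn1c, Cdkn3 and Cdkn1a and summed level of marker and pathway lists in each mouse, relative to the mean of the Lgr5-WT mice on a log axis (blue, Lgr5-WT; red, Lgr5-CREPTKO; circle, mouse 1; square, mouse 2). Cdkn3 is at 0.0814 and 0.218 in the Lgr5-CREPTKO mice and the G2/M list at 0.921 and 0.919. Cdkn1c at 0.382 and 0.415 lies near the enteroendocrine and goblet lists, with the tuft list, at 0.525 and 0.201, to either side of it.

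Cdkn1a and Cdkn1b, the other Cip/Kip genes, showed no difference larger than the spread between mice. Cdkn1a (chromosome 17 from 29090979 to 29100722), which encodes p21, was at 18.4 and 13.7 FPKM in the Lgr5-WT mice and at 15.2 and 15.7 FPKM in the Lgr5-CREPTKO mice, both of which lay between the Lgr5-WT values. Its log2 fold change was -0.04 (standard error 0.154, 95% interval -0.43 to 0.36, adjusted p = 0.907). The annotated gene AC167363.2 overlaps Cdkn1a on the opposite strand, so the limit on strand given for Cdkn1c holds here too. Cdkn1b (chromosome 6 from 134920401 to 134925525), which encodes p27, was at 32.4 and 38.8 FPKM in the Lgr5-WT mice and at 35.3 and 31.1 FPKM in the Lgr5-CREPTKO mice, with overlapping values. Its log2 fold change was -0.10 (standard error 0.121, 95% interval -0.41 to 0.21, adjusted p = 0.670). Neither interval reached a change of 1 on the log2 scale in either direction. Within the Cip/Kip sum of each mouse, which was 53.9 and 56.9 FPKM in Lgr5-WT and 52.0 and 48.3 FPKM in Lgr5-CREPTKO cells, Cdkn1b made up 60.1% to 68.3% and Cdkn1a 24.1% to 34.2% over the 4 mice. The share of Cdkn1c was 5.69% and 7.67% in the Lgr5-WT mice and 2.73% and 3.19% in the Lgr5-CREPTKO mice.

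Of the other targets of p53, 3 passed the test as higher, where 0.412% of all genes tested did. All 16 listed beside Cdkn1a were tested, 0 passed as lower, and the median log2 fold change was 0.14. Before adjustment, 7 were higher and 1 lower at p below 0.05, against 9.27% and 15.2% of all genes tested. The 3 were Phlda3, an inhibitor of Akt, Bbc3, the pro-apoptotic PUMA, and Ccng1, a cyclin of the p53 response. Phlda3 was at 2.04 and 2.89 FPKM in Lgr5-WT and 12.7 and 12.7 FPKM in Lgr5-CREPTKO cells (log2 fold change 2.17, adjusted p = 0.0280). Ccng1 was at 34.4 and 34.1 FPKM and then at 60.7 and 53.1 FPKM (log2 fold change 0.72, adjusted p = 0.0373), and Bbc3 had a log2 fold change of 0.99 (adjusted p = 0.0460). Among the targets that did not pass, Eda2r, Zmat3 and Sesn2 had log2 fold changes of 1.37, 0.88 and 0.48. Their adjusted p-values by limma's moderated test were 0.0638, 0.0569 and 0.0719. Mdm2, which degrades p53, had a log2 fold change of 0.09 (adjusted p = 0.539) and Bax one of -0.00 (adjusted p = 0.989). Both Lgr5-CREPTKO values were above both Lgr5-WT values in 9 of the 16 targets, against 25.6% of all genes, and below them in 3 (Fas, Btg2 and Perp), against 31.0% of all genes, while those of Cdkn1a overlapped. Btg2, an antiproliferative gene, was at 73.6 and 44.9 FPKM and then at 35.5 and 26.1 FPKM (log2 fold change -0.91, adjusted p = 0.134). The difference between Cdkn1a and these targets was not tested.

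The INK4 genes did not pass the test. Cdkn2c (chromosome 4 from 109660876 to 109666756), which encodes p18, was at 10.5 and 11.8 FPKM in the Lgr5-WT mice and at 11.3 and 8.59 FPKM in the Lgr5-CREPTKO mice, where 1 mouse lay within the Lgr5-WT range and 1 below it. Its log2 fold change was -0.17 (standard error 0.155, 95% interval -0.57 to 0.23, adjusted p = 0.558). Cdkn2d (chromosome 9 from 21288459 to 21291421), which encodes p19, was at 5.91 and 6.68 FPKM and then at 5.39 and 4.36 FPKM, and its values did not overlap. Its log2 fold change was -0.34 (standard error 0.145, 95% interval -0.72 to 0.03, adjusted p = 0.232). Of the INK4 genes that are not among the 6, Cdkn2b was at 1.86 and 4.83 FPKM in Lgr5-WT and 1.37 and 4.13 FPKM in Lgr5-CREPTKO cells, a spread within each genotype wider than the difference between them (adjusted p = 0.818). Cdkn2a was not found by its symbol among the genes of the deposited table.

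The kinases and cyclins that the inhibitors act on were compared next. Of the 9 G1 cyclins and kinases, 1 passed as lower, Cdk4, and 0 as higher (2 lower and 2 higher at p below 0.05 before adjustment), with a median log2 fold change of -0.14. Cdk4, the kinase bound by the INK4 proteins, was at 293 and 287 FPKM in the Lgr5-WT mice, against 171 and 178 FPKM in the Lgr5-CREPTKO mice (log2 fold change -0.73, adjusted p = 0.0298), whereas its relative Cdk6 was at 22.5 and 19.9 FPKM and then at 27.8 and 27.0 FPKM (0.37, adjusted p = 0.0967). Ccnd1, a D-type cyclin that partners both, was at 56.3 and 52.0 FPKM and then at 80.8 and 100.2 FPKM (0.73, adjusted p = 0.0553). The D-type cyclin Ccnd2 was at 83.2 and 72.9 FPKM and then at 65.7 and 75.65 FPKM. Ccnd3, also of the D type, was at 21.0 and 23.4 FPKM and then at 21.6 and 18.7 FPKM. Unlike Ccnd1, Ccnd2 and Ccnd3 overlapped between the genotypes and leaned lower in Lgr5-CREPTKO cells (-0.14 each). The 3 mitotic genes Cdk1, Ccnb1 and Ccnb2 had log2 fold changes of -0.16, -0.21 and -0.19, and the 3 pocket proteins, the substrates through which Cdk4 and Cdk6 act, had 0.26 (Rb1), -0.05 (Rbl1) and 0.16 (Rbl2). None of these 6 passed in either direction by limma's moderated test, and 0 were below an unadjusted p of 0.05.

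The ratios of INK4 and of Cip/Kip transcripts to those of the G1 kinases were higher in both Lgr5-CREPTKO mice than in both Lgr5-WT mice, unlike those of Cdkn3 to Cdk1 and Cdk2. The inhibitor sums were not higher: that of Cdkn2c and Cdkn2d was 16.4 and 18.5 FPKM in Lgr5-WT and 16.7 and 12.95 FPKM in Lgr5-CREPTKO cells, and the Cip/Kip sum is given above. The kinase sums were lower, with Cdk4 and Cdk6 together at 315 and 306 FPKM and then 199 and 205 FPKM, and with Cdk2 added at 349 and 338 FPKM and then 230 and 232 FPKM. Of these 3 kinases, only Cdk4 passed the test. Cdkn2c and Cdkn2d together were 0.0520 and 0.0603 of Cdk4 and Cdk6 together in the Lgr5-WT mice and 0.0837 and 0.0631 in the Lgr5-CREPTKO mice, a log2 difference of 0.38. Cdkn1a, Cdkn1b and Cdkn1c together were 0.155 and 0.168 of Cdk2, Cdk4 and Cdk6 together in the Lgr5-WT mice and 0.225 and 0.209 in the Lgr5-CREPTKO mice, a log2 difference of 0.43. The genotypes did not overlap in either ratio, and the exact permutation p was 0.333 for each, the smallest possible. With any 1 mouse left out the log2 difference was between 0.17 and 0.58 for the first ratio and between 0.37 and 0.49 for the second. The first moved by more than 1.5 times without either Lgr5-CREPTKO mouse, to 0.17 without mouse 1 and 0.58 without mouse 2. These are ratios of transcripts, and protein was not measured.

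**Figure D5:**
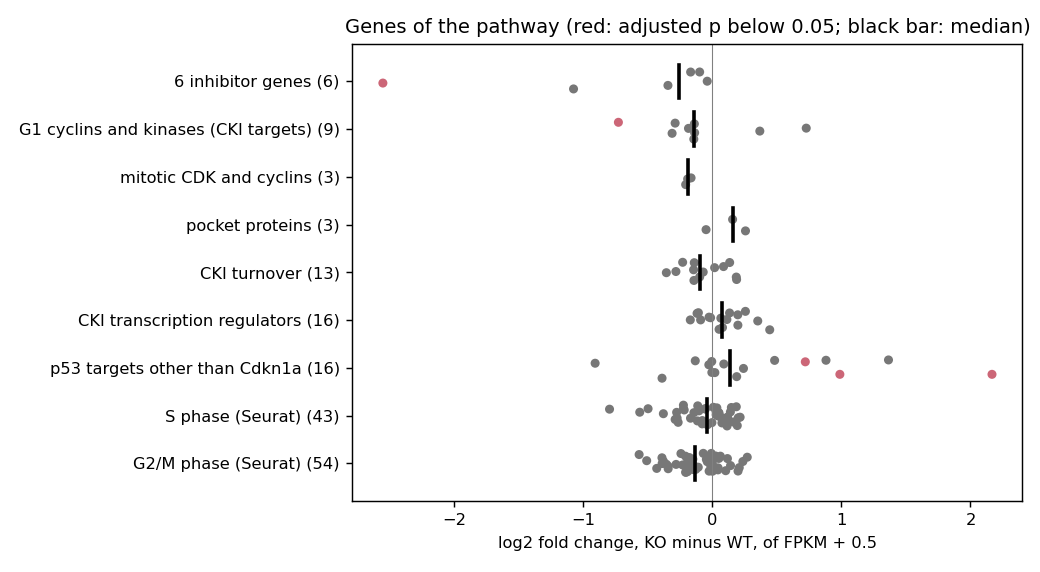
Log2 fold change (Lgr5-CREPTKO minus Lgr5-WT, of FPKM + 0.5) of each tested gene of the inhibitors and 8 pathway lists, with the number tested in brackets, a black bar at each median and genes with an adjusted p below 0.05 in red. The red points are Cdkn3, Cdk4, and 3 p53 targets on the higher side.

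Genes that act on the inhibitors themselves did not pass the test. Of the 13 genes of inhibitor turnover, which include the Skp2 and Cdt2 (Dtl) ubiquitin ligases of p27 and p21, 0 passed (3 lower and 1 higher at p below 0.05 before adjustment), with a median of -0.10. Cks1b, the cofactor of Skp2 in the recognition of p27, was at 27.3 and 29.9 FPKM in Lgr5-WT and 22.9 and 21.6 FPKM in Lgr5-CREPTKO cells (log2 fold change -0.35, adjusted p = 0.0935), and Skp2 had a log2 fold change of -0.10. Of the 16 transcription regulators 0 passed (0 lower and 3 higher at p below 0.05 before adjustment), with a median of 0.07. The largest difference among them was that of Foxo3, an activator of Cdkn1b, at 10.27 and 10.04 FPKM and then at 15.1 and 13.0 FPKM (0.45, adjusted p = 0.0892), followed by Myc, a repressor of Cdkn1a, at 0.35 (adjusted p = 0.151). Trp53 was at 109 and 116 FPKM and then at 116 and 108 FPKM. Foxm1, which activates mitotic genes, was at 15.6 and 15.5 FPKM and then at 15.0 and 12.6 FPKM (-0.17, adjusted p = 0.403).

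The genes with a profile most like each inhibitor were taken from 11652 genes whose mean reached 1 FPKM, by the root mean square difference of centred log2 values over the 4 mice. For Cdkn3 they were Prodh2, Zfp612 and Tac1, at 0.273, 0.339 and 0.370. Tac1, for one, was at 8.35 and 9.20 FPKM in Lgr5-WT and 1.42 and 2.91 FPKM in Lgr5-CREPTKO cells. For Cdkn1c they were Scin, Arl16 and Hpd, at 0.0294, 0.0404 and 0.0568, of which Scin was at 7.04 and 9.95 FPKM and then at 3.79 and 3.93 FPKM. For the other 4 inhibitors the nearest were Kif4 for Cdkn1a (0.0150), Ccdc126 for Cdkn1b (0.00941), Cmc4 for Cdkn2c (0.0158) and Marcksl1 for Cdkn2d (0.00590). The measure is not scaled to the size of a gene's change, and few genes changed as much as Cdkn3, so few could lie near it. The distances therefore cannot be compared between inhibitors. With 4 mice, such likeness is a description of these libraries.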

How the data were processed

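RNA of sorted Lgr5-GFP high cells from 4 mice was analysed, 2 per genotype, assigned by sample titles that match the column names. The authors deposited FPKM values per gene and mouse, rounded to 2 decimals; the labels name HISAT, Bowtie2, RSEM and mm10, and by the paper's methods reads were mapped with Bowtie2 to transcripts of GRCm38.p6 and quantified with RSEM. The study called genes with a count model; counts were not used here, so limma 3.58.1 in R 4.3.3 (lmFit, eBayes with an intensity trend) was run on log2(FPKM + 0.5) for the 12621 of 18436 genes whose mean reached 0.5 FPKM, with Benjamini-Hochberg adjustment. FPKM hides read depth, so counting error could not be given. Replicates are different mice by the study's methods.

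The inhibitors, gene lists and alternatives were chosen with earlier results of these data known. Lists are given by counts and medians, with no set test. Named from each list are genes past the test, or else up to 3 with the largest change. Genes with a role stated in the text, and genes set beside those named, were chosen after their values were seen. Pimreg and Jpt1 were matched by the older symbols Fam64a and Hn1. Coordinates and promoters are RefSeq's on GRCm38.p6; GENCODE M21 gave overlaps and transcript lengths. The fit was also run on simulated data with the same spread setting for every gene, which cannot check how variance is shared in these data. Python 3.11.15 with pandas 2.3.3 and matplotlib 3.10.9 was used for sequences and figures.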

Additional observations from a re-analysis of the deposited data

How the results depend on the processing

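With 2 mice per genotype, the calls depend on how the variance is shared. The count of inhibitors lower in Lgr5-CREPTKO cells by limma at an adjusted p below 0.05, 1 as reported, was 0 without the filter on low values and 0 without the intensity trend (2 at an unadjusted p below 0.05 in both), 2 when genes with only shorter transcripts than 200 bases were left out, and 0 to 0 with any 1 mouse left out (2 or 3 at an unadjusted p). The count of higher inhibitors was 0 in all 15 alternatives. Cdkn3 kept its direction in all 15, between -3.09 and -2.01, and its call in 8. It was at -2.55 with an adjusted p of 0.134 without the filter, 0.0809 without the trend and 0.0567 with a robust trend, and between -3.09 and -2.01 with a mouse left out. Cdkn1c, at -1.07, passed with the robust trend (adjusted p = 0.0471) and with the length limit (-1.07, 0.0463), and was between -1.30 and -0.85 with a mouse left out. Cdkn1a was 0.038 with libraries scaled to a common sum and between -0.25 and 0.17 with a mouse left out, Cdkn1b between -0.23 and 0.031, and Cdkn2c between -0.35 and 0.021; Cdkn2d was negative in all 15. Where 1 mouse was left out, the lone mouse of its genotype was assumed to vary like the others. Over all genes, 337 lower and 52 higher became 0 and 0 without the filter (smallest adjusted p 0.105, with 2250 lower and 1320 higher before adjustment at p below 0.05) and with any 1 mouse left out, 4 and 0 without the trend, 525 and 126 with a robust trend, and 508 and 116 with the length limit. The cause of these shifts was not tested. Of the lists, G1 cyclins and kinases had 2 genes past the test, not 1, with a minimum of 1 FPKM or median ratio scaling, S phase genes 1 with that minimum, and goblet markers 1, not 2, with median ratio scaling.

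Same-numbered mice of the 2 genotypes are different animals, and their deviations from the genotype means were not correlated (r = -0.03 across genes). With the replicate number as a block, 168 genes were lower and 15 higher, the count of inhibitors was 1 lower and 0 higher, and Cdkn3 had an adjusted p of 0.0455 and Cdkn1c one of 0.0696, with the same log2 fold changes of -2.55 and -1.07.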
